A study of Mus musculus and Rattus norvegicus with 11 samples.

Results

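The genes of oxidative phosphorylation were taken by symbol: mitochondrially encoded genes whose names start with mt-Nd, mt-Co, mt-Atp or mt-Cytb, and nuclear genes whose names start with Nduf, Uqcr or Atp5 or match Cox subunits 4 to 8 followed by a, b or c. Of the 31053 genes of the mouse table, 100 met this rule. The mitochondrial genome gave 13 of them: 7 subunits of complex I, 1 of complex III, 3 of complex IV and 2 of complex V. The nucleus gave 87 rows (86 symbols, with Atp5o listed under 2 gene identifiers): 38 in complex I, 8 complex I assembly factors, 8 in complex III, 16 in complex IV and 17 in complex V. Cox7b2 and Cox8c had no UMI in any library. The rule does not take in Cox4i1 and Cox4i2, the subunit 4 isoforms.

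Oxidative phosphorylation is the last stage of respiration. Complexes I, III and IV pass electrons to oxygen and pump protons across the inner mitochondrial membrane, and complex V uses the proton gradient to make ATP. Complexes I, III, IV and V are built from subunits of both genomes: some of the core subunits are read from a circular mitochondrial genome present in many copies per cell, as long transcripts that are then cut up, whereas the other core subunits and the accessory subunits come from nuclear genes spread over the chromosomes. Here the nuclear members lay on 19 chromosomes, with 3 of them on X. Several subunits of complexes I and IV have tissue-restricted isoforms, best known from heart, skeletal muscle, lung and testis.

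The samples were cells of sciatic nerve and brachial plexus from perfused mice, enzymatically dissociated, depleted of myelin, sorted as viable cells and processed as droplet-based 3' tag libraries. Of the mouse libraries, 3 came from undiseased C57BL/6 mice (libraries 1, 3 and 4), 3 from mice given as NOD control (libraries 1, 2-1 and 2-2), and 3 from NOD mice labelled ICAM-1 deficient (libraries 1, 2 and 3), a chronic autoimmune neuritis model. NOD is a strain prone to autoimmunity, and ICAM-1 is the adhesion molecule encoded by Icam1. Ages, sexes, treatments and the number of mice per library were not given in the sources used here, and libraries from naive Lewis rats were not analysed here. NOD control libraries 2-1 and 2-2 were summed and are called NOD control 2, which left 8 samples. No label says that the samples were separate animals, so the p-values measure only the spread between these samples.

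Libraries held between 391 and 3613 named cells at a median of 593 to 1566 UMIs per cell. Any 2 libraries shared 0 to 15 barcodes over 36 pairs. Icam1 stood at 248, 262 and 255 counts per 1000000 UMIs (CPM) in the libraries labelled Icam1 knockout, against 94.5 and 51.0 in NOD control and 81.8, 88.1 and 48.0 in C57BL/6. The level was thus highest under the knockout label. Whether these 3' tags lie in the deleted part of the gene is not given in the sources used here, so the libraries are named below by their label only.

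Cell types carry the names deposited with the data, and 1 of them went against its markers. Cells named nmSC had 94838 to 154117 summed CPM of the 7 pan-fibroblast markers (Dcn, Gsn, Lum, Apod, Col1a1, Col1a2, Pdgfra) and 310 to 491 of 4 pan-Schwann markers (Sox10, S100b, Gpm6b, Cryab). Cells named mySC had 3466 to 6437 of the same 4 markers. The name nmSC is therefore used only as the deposited name. In NOD control 1, the 39 cells named CD4 had 295 CPM of the T cell markers, against 3656 in NOD control 2 and 6616 to 7287 in the knockout-labelled libraries. The T cell markers did not bear out that name in NOD control 1, and the calls of both comparisons are given below with what became of them without this sample.

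The 13 mitochondrial members together held 449316 UMIs in named cells, and the 87 nuclear rows held 450913. The totals were thus alike, but spread over far fewer mitochondrial than nuclear members, and in different proportions between libraries. In C57BL/6 the mitochondrial members made up 0.971%, 3.14% and 3.07% of UMIs in libraries 1, 3 and 4. In NOD control they made up 0.611%, 1.99% and 1.87% in libraries 1, 2-1 and 2-2. In the libraries labelled Icam1 knockout the share was 2.35%, 2.42% and 2.51%. C57BL/6 library 1 and NOD control library 1 stood well below every other library.

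The nuclear share varied less between the libraries. Their share was 2.79%, 2.58% and 2.55% in C57BL/6, 2.39%, 2.56% and 2.44% in NOD control, and 2.13%, 2.15% and 2.10% in the knockout-labelled libraries. The library with the least mitochondrial signal in C57BL/6 had the highest nuclear share of its group, whereas that in NOD control had the lowest. Among types with at least 20 cells in all 3 libraries, each of these libraries had the lowest nuclear share in 3 of 6 types. The log2 ratio of mitochondrial to nuclear member UMIs was -1.52, 0.28 and 0.27 in C57BL/6, -1.97, -0.37 and -0.39 in NOD control, and 0.14, 0.17 and 0.26 under the knockout label.

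The same libraries were low in every cell type that could be compared. Among types with at least 20 cells in all 3 libraries, C57BL/6 library 1 had the lowest mitochondrial share in 6 of 6 types, with the highest library 3.22 to 4.17 times the lowest. NOD control library 1 was lowest in 6 of 6 types, with a ratio of 1.88 to 3.84. The 3 knockout-labelled libraries lay within 1.04 to 1.28 times of each other over 7 types. The nuclear share varied less, by 1.04 to 1.78 times in C57BL/6, 1.05 to 1.24 times in NOD control and at most 1.23 times in the knockout-labelled libraries. Both libraries numbered 1 also had a median of 737 and 760 UMIs per cell, but NOD control 2-1, at 593, had the higher mitochondrial share of 1.99%, and the part of depth in these shares was not tested.

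**Figure D1:**
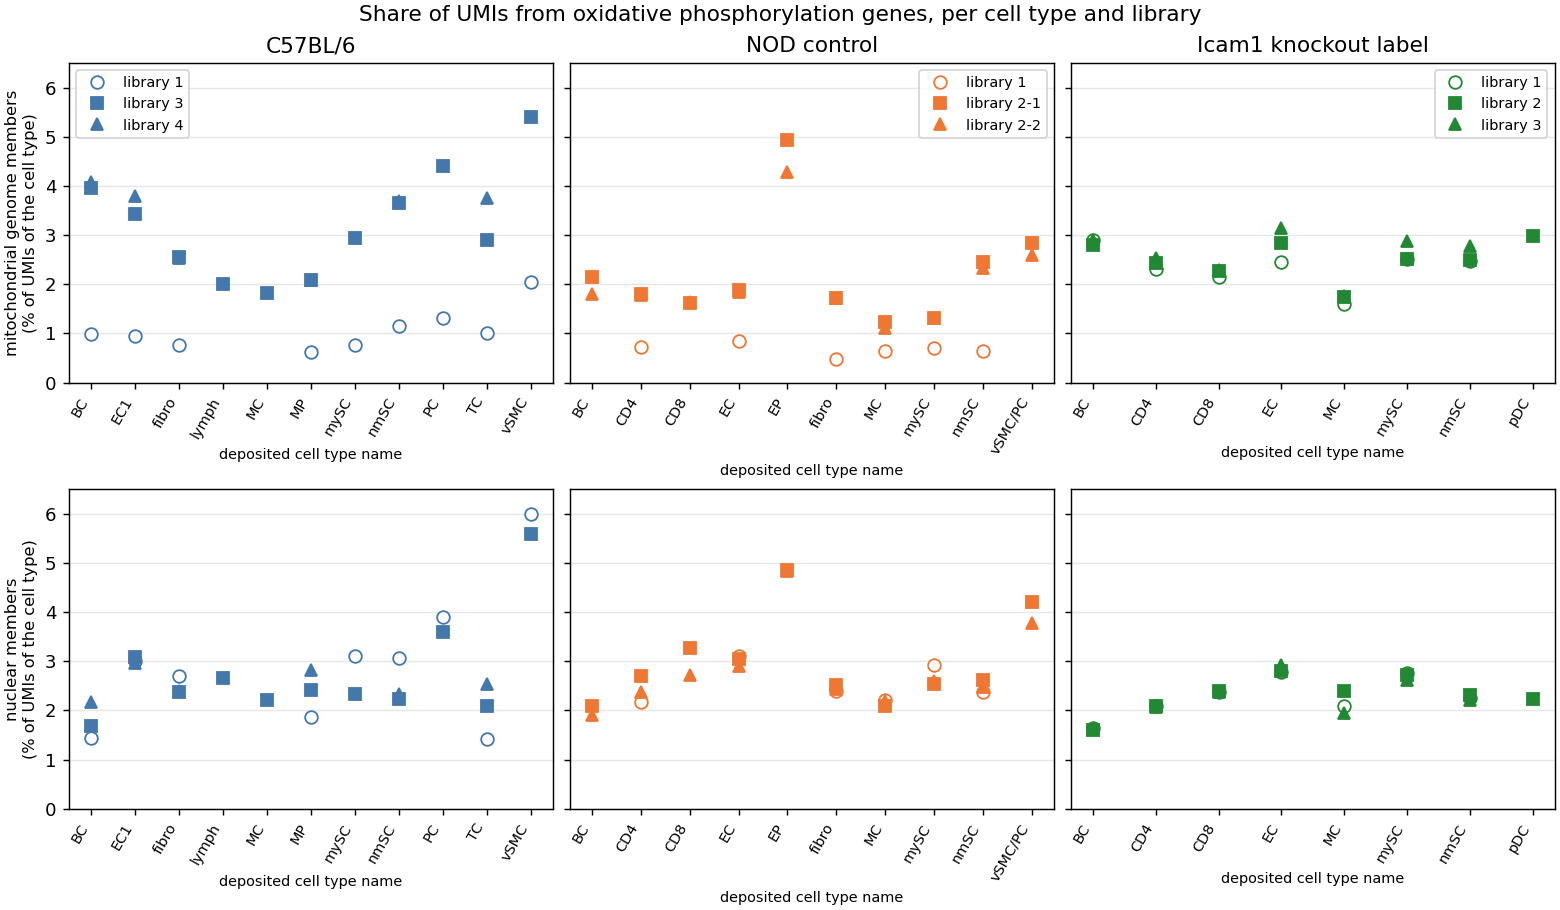
Share of all UMIs held by the 13 mitochondrial members and by the nuclear members in each deposited cell type, 1 point per library with at least 20 cells, with mitochondrial members in the top row, nuclear members in the bottom row and 1 column per group. Mitochondrial shares of C57BL/6 library 1 and NOD control 1 lie lowest in each type they share with other libraries of their group. Nuclear shares are highest in vSMC, at 5.59% and 6.00%, and overlap between several other types.

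The nuclear members set a few cell types apart, while others overlapped. Over the C57BL/6 libraries nmSC held 2.23% to 3.07%, fibroblasts (fibro) 2.37% to 2.71% and MP 1.86% to 2.83%. Cells named vSMC (vascular smooth muscle cells, with 22463 and 20191 CPM of the mural markers) had the highest nuclear share, 6.00% and 5.59% in C57BL/6 libraries 1 and 3. Pericytes (PC) followed at 3.89% and 3.60%. The EC1 endothelial cells held 3.00%, 3.08% and 2.97% in libraries 1, 3 and 4, below mySC (3.10%) and nmSC (3.07%) in library 1. B cells (BC), at 1.45%, 1.68% and 2.16%, were lowest in libraries 3 and 4, and T cells (TC), at 1.43%, 2.09% and 2.54%, were lowest in library 1. The ranges of these last 2 types overlapped. In NOD control 2 the 53 cells named EP had 4.85%, above the mixed vSMC/PC cells at 3.95%. Cell types were named by the depositors from the same counts, so these differences are descriptions and carry no test.

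All complexes took part in the high level of vSMC. In C57BL/6 library 3 the nuclear subunits of complex I made up 2.11% of vSMC UMIs against 0.876% in nmSC and 0.538% in B cells. Complex IV subunits made up 1.35%, 0.558% and 0.378%, and complex V subunits 1.38%, 0.510% and 0.489% in the same 3 types. The mitochondrial share of vSMC was also the highest of that library, at 5.40%, so that mitochondrial and nuclear UMIs stood almost level there (log2 ratio -0.05). B cells of the library held 3.95% mitochondrial and 1.68% nuclear member UMIs, a log2 ratio of 1.24, the highest of its types. B cells of library 4 had the highest mitochondrial share there (4.08%) and the lowest nuclear share. In library 1 they ranked 5 of 9 types for the mitochondrial share, at 0.979%, and T cells had the higher log2 ratio (-0.49 against -0.56).

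Of 83 nuclear members with at least 100 UMIs, 59 had their highest C57BL/6 mean in vSMC, 8 in pericytes and 4 in EC1. No UMI was counted in at least 1 type for 13 of them, and the other 70 had UMIs in all 11 types. Among these 70, the lowest mean was in B cells for 35, in MC for 15 and in T cells for 6. The median ratio of the highest to the lowest type was 4.06 over the same 70. The 6 widest ranges among them all had Nduf names, which are listed here with complex I. Ndufs7, a core subunit of the electron-carrying arm, had 732 CPM in vSMC and 38.9 in MC. The MC value is 2 UMIs, under the 58.3 CPM that a count of 0 would allow there (3 counts), so no ratio is given for it. Ndufa5, an accessory subunit of the same arm, had 1004 in vSMC and 91.8 in B cells. Ndufab1, the mitochondrial acyl carrier protein that is also a complex I subunit, had 513 in vSMC and 54.7 in B cells. Ndufa12 had 518 in vSMC and 66.5 in B cells, a ratio of 7.78, and Ndufv3 had 440 in vSMC and 3 UMIs in MC. Ndufa4, also among the 6 but known as a subunit of complex IV as well, had its lowest level in pericytes. MC of C57BL/6 rest on 24 cells of library 3. Without MC, a choice made after seeing the data, 73 members had UMIs in all 10 types and the median ratio was 3.95. Ndufa5, Ndufab1, Ndufa4 and Ndufa12 were still among the 6 widest ranges, and Cox6b2 and Uqcr11 took the places of Ndufs7 and Ndufv3.

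**Figure D2:**
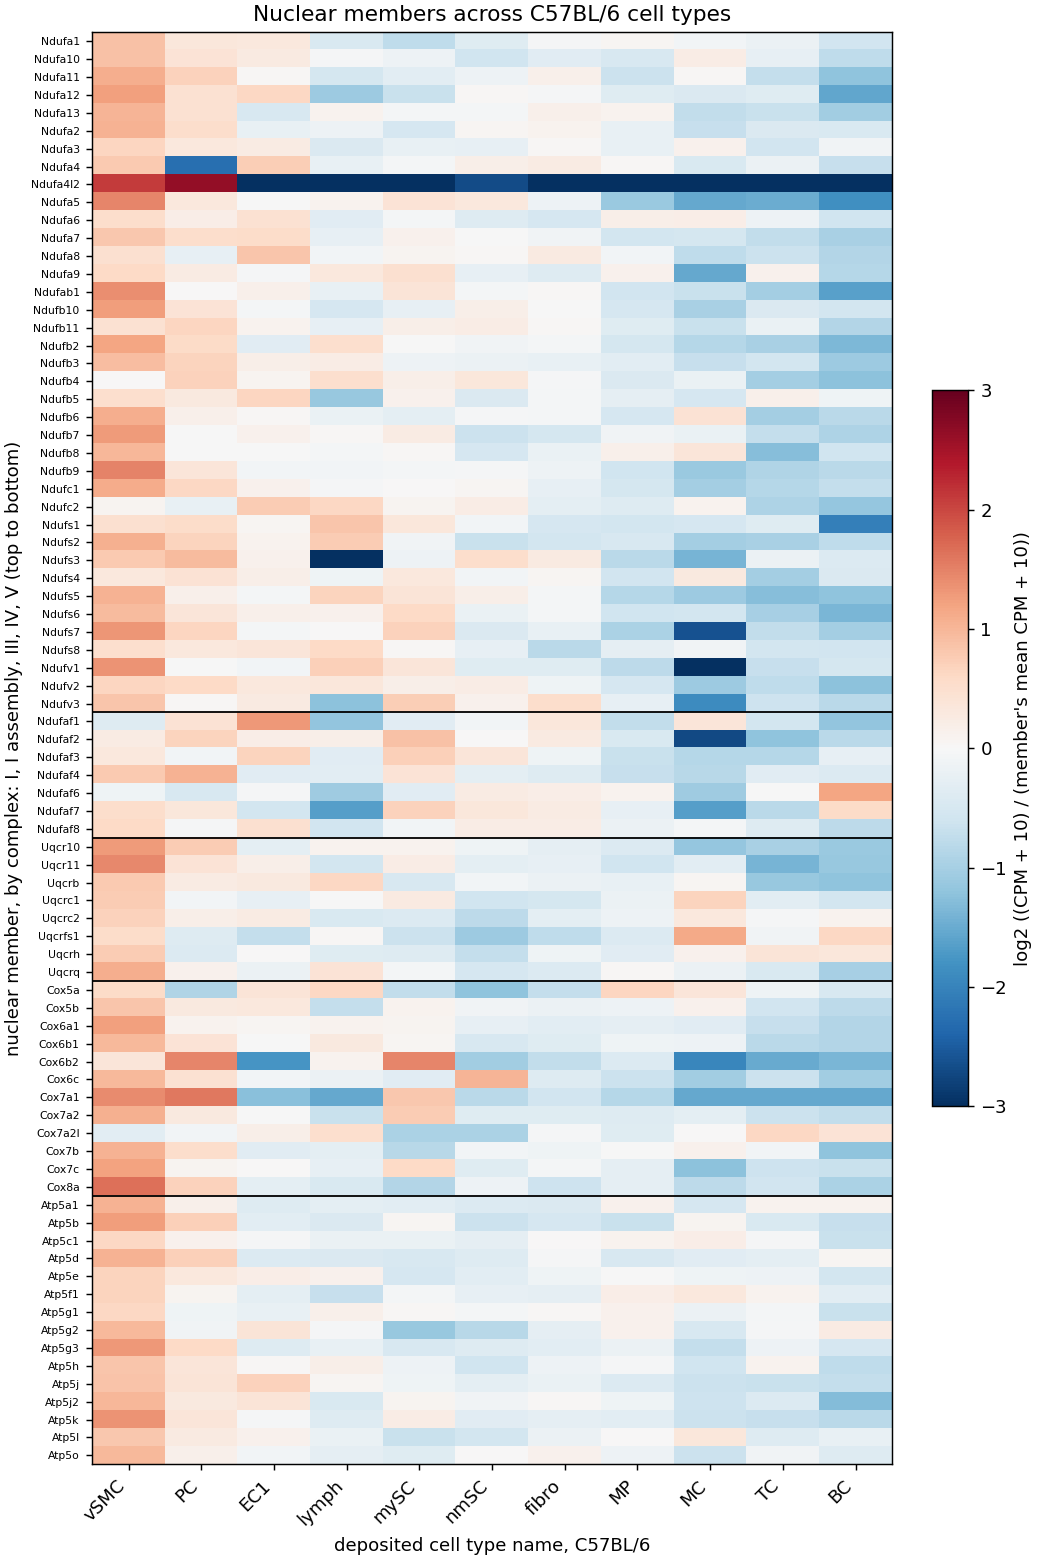
Level of the 80 nuclear members with at least 100 UMIs in C57BL/6 cells across 11 deposited cell types, as log2 of CPM plus 10 over the member's own mean plus 10, arranged by complex. The vSMC column is the highest for most members of every complex and the B cell and MC columns are low. Ndufa4l2, high in pericytes and vSMC, departs from the other rows of complex I.

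Ndufa4 and its paralogue Ndufa4l2 had different patterns over the vessel cells. Ndufa4, listed here by its name with complex I and also known as a subunit of complex IV, had 26.0 and 195 CPM in pericytes of C57BL/6 libraries 1 and 3. It had 1015 and 966 in vSMC, and 956, 1084 and 831 in EC1. Ndufa4l2, a hypoxia-inducible paralogue, had 2393 and 2059 in pericytes, 1567 and 1457 in vSMC, and 1311 in vSMC/PC of NOD control 2. In every other type and sample it was between 0 and 73.6 CPM. Pericytes thus had high Ndufa4l2 with low Ndufa4, vSMC had high levels of both, and EC1 had Ndufa4 with little Ndufa4l2. A 3' UMI count does not grow with transcript length, but how well the 3' end of each paralogue is captured was not examined. High and low here therefore compare cell types within each gene.

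Cox4i2, the hypoxia-linked isoform of complex IV subunit 4, was in the same cells. It stood at 494 and 381 CPM in pericytes, 761 and 570 in vSMC and 318 in vSMC/PC, and at no more than 18.7 elsewhere. Of the striated muscle isoforms, Cox6a2 had no UMI in C57BL/6 pericytes or vSMC and Cox8b had 1 UMI in all, whereas Cox7a1 was present in both types.

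Cox6a2, the heart and skeletal muscle form of complex IV subunit 6a, appeared instead in plasmacytoid dendritic cells (pDC). It reached 934 CPM in pDC of knockout-labelled library 2, and 26 of 46 pDC of the 3 knockout-labelled libraries had at least 1 UMI, as did 3 of 9 in NOD control. C57BL/6 cells have no pDC name in the deposited annotation. There, B cells had 44.3, 58.5 and 190 CPM, which came from 3 of 160 cells. All 3 of these cells also had a UMI of Siglech, a pDC marker, and none had one of the B cell marker Cd79a, which 121 of the other 157 cells had. Among B cells of the knockout-labelled libraries, 1 of 1107 had a Cox6a2 UMI.

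Cells named EP carried 2 further restricted isoforms. Cox6b2, known from testis, stood at 394 CPM in EP of NOD control 2, with 104 and 90.2 in C57BL/6 pericytes. Cox7a1, the heart and skeletal muscle isoform of subunit 7a, stood at 368 in EP, at 44.8 and 89.95 in vSMC of C57BL/6 libraries 1 and 3 and at 78.0 and 75.1 in pericytes. Cox6b2 also stood at 161 CPM in mySC of C57BL/6 library 1, from 4 UMIs and against a limit of 121 CPM that a count of 0 would allow there, and at 32.3 in mySC of library 3. The EP values rest on 15 and 14 UMIs. Cox8a, the widely expressed form of subunit 8, was highest in vSMC, at 3940 and 3016.

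**Figure D3:**
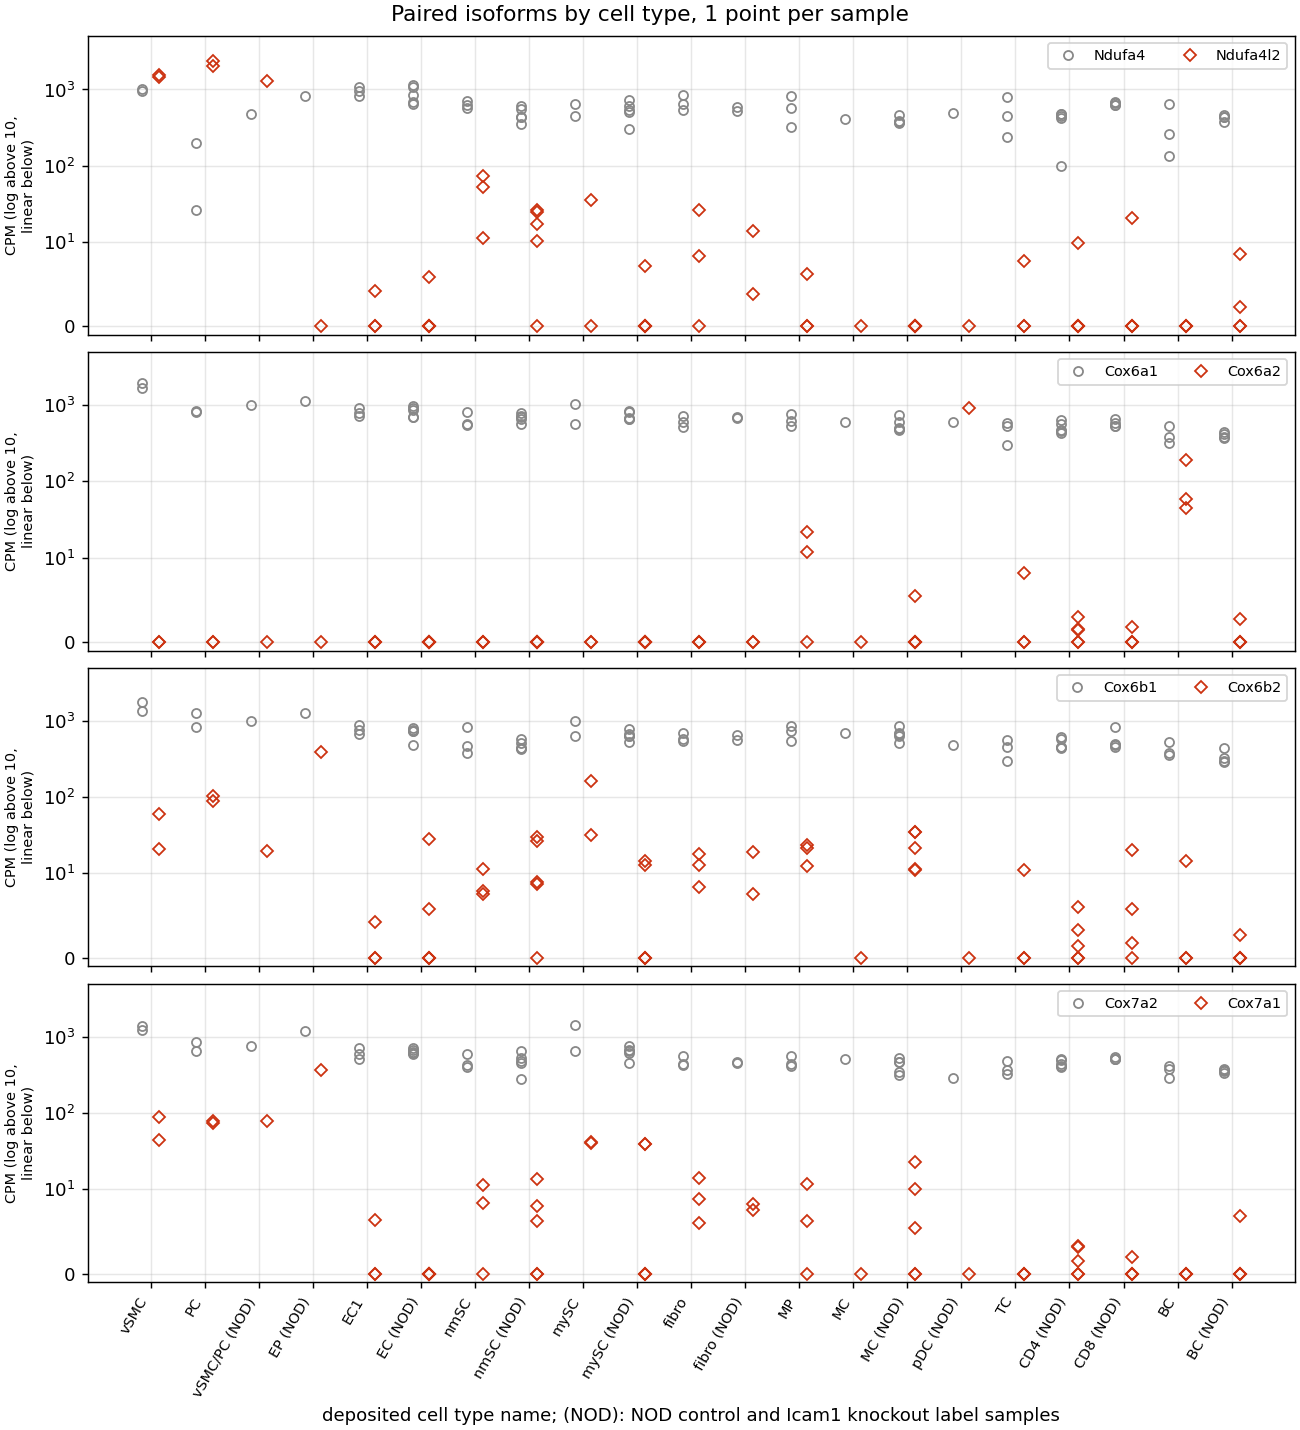
CPM of 4 isoform pairs in each deposited cell type, 1 point per sample, on a scale that is logarithmic above 10 and linear below. Ndufa4l2 is high in pericytes and vSMC, Cox6a2 in pDC, and Cox6b2 and Cox7a1 in EP, whereas the widely expressed partners are present in nearly all types.

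The make-up of the mitochondrial part itself differed between the groups. mt-Atp6, which encodes the proton channel subunit of complex V, held 19.8%, 27.9% and 27.5% of the mitochondrial members' UMIs in C57BL/6. It held 10.5%, 11.2% and 10.6% in NOD control, and 26.6%, 26.9% and 25.1% in the knockout-labelled libraries. The 3 NOD control libraries lay below all 6 others. mt-Co2, the complex IV subunit that takes electrons from cytochrome c, held 8.06%, 6.94% and 6.56% in C57BL/6, 5.20%, 1.72% and 1.86% in NOD control, and 6.17%, 5.30% and 5.72% under the knockout label. Again the NOD control libraries were the lowest, at the closest by 5.20% against 5.30%. Within single cell sets of each library the mt-Atp6 shares also did not overlap, at 5.43% to 12.7% in NOD control and 15.6% or more in the other groups. The mt-Co2 shares there did overlap, at 1.36% to 8.36% in NOD control, 5.80% to 9.57% in C57BL/6 and 4.28% to 7.04% under the knockout label.

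mt-Co3, a core complex IV subunit, went the other way. It held 17.5%, 17.1% and 17.1% in C57BL/6, 24.9%, 29.3% and 30.0% in NOD control, and 22.3%, 21.8% and 23.9% under the knockout label. mt-Cytb, the mitochondrial subunit of complex III, held 8.40%, 13.5% and 12.1%, then 15.8%, 18.0% and 16.9%, then 12.9%, 12.6% and 12.8% in the same order. mt-Co1, the catalytic subunit of complex IV, held 23.9%, 14.4% and 17.9%, then 24.4%, 20.3% and 20.4%, then 15.3% to 16.9%. mt-Nd2, of complex I, held 3.09%, 1.79% and 1.68% in C57BL/6, 0.91%, 0.38% and 0.66% in NOD control and 1.16%, 0.91% and 0.99% under the knockout label. These shares are taken within the mitochondrial members, so the total mitochondrial share does not enter them directly. For mt-Atp6 they set NOD control library 1 with the other NOD control libraries. In both C57BL/6 and NOD control, library 1 had the highest mt-Co1 and mt-Nd2 shares and the lowest mt-Cytb share of its group. Whether the shares vary with the mitochondrial level of a library was not tested. Within single cell sets, mt-Co3 held 20.2% to 33.7% in NOD control and 19.8% to 24.3% under the knockout label. There mt-Cytb held 9.76% to 21.7% and 10.1% to 18.0%, so both overlapped. The libraries differed in cell make-up, and its part in the library shares was not tested.

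**Figure D4:**
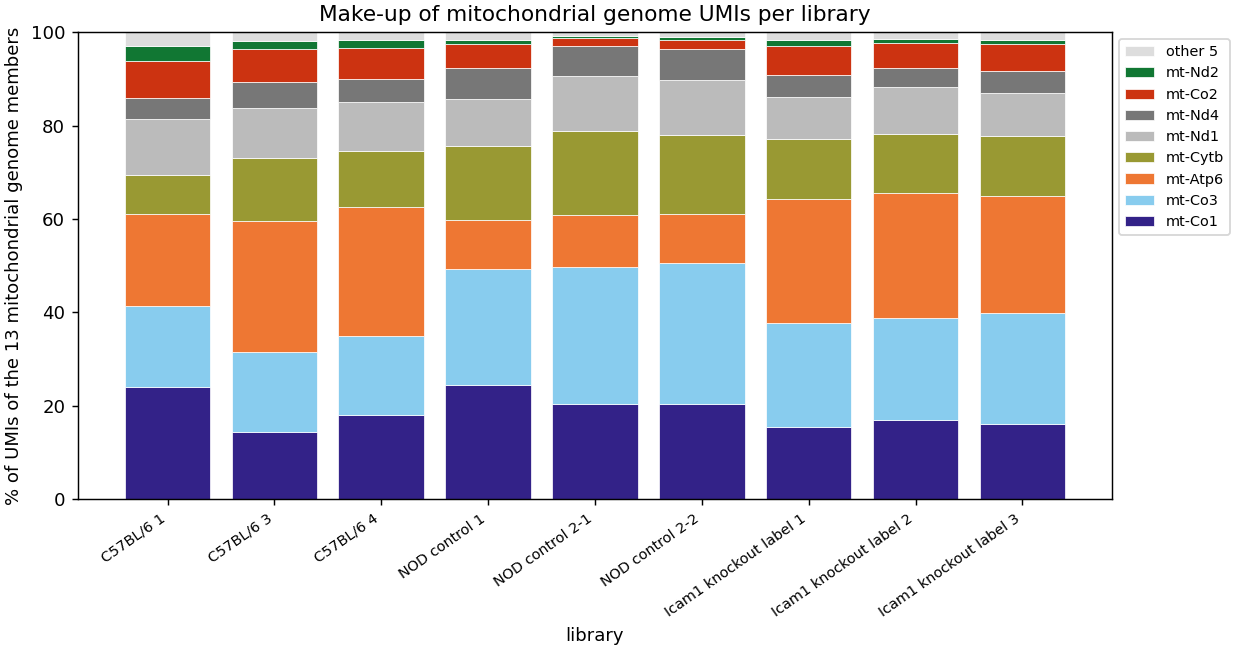
Percent of the mitochondrial members' UMIs held by each of 8 members, with the other 5 together, in each of the 9 libraries. The mt-Atp6 share is lowest in the 3 NOD control libraries, at 10.5% to 11.2%, and the mt-Co3 and mt-Cytb shares are highest in these libraries.

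The ends of several of these genes recur in the nuclear genome, which matters for counting 3' tags. The mouse nuclear genome holds a copy of part of the mitochondrial genome on chromosome 1. Of the last 400 bases of mt-Co1 and mt-Co2, 100% of 57-base stretches also occurred in another annotated gene. The share was 99.7% for mt-Co3, 99.1% for mt-Atp6, 98.8% for mt-Nd4l and 97.9% for mt-Nd3. For mt-Nd2 it was 21.2%, for mt-Nd5 2.62% and for the remaining members 0. At 57 and at 150 bases, 6 of the 13 mitochondrial members were above 90%, and no nuclear member was. mt-Co2 aligned to Gm28661 over 681 bases, mt-Atp6 to Gm10925 over 678 and mt-Co3 to Gm28437 over 783, with 0 differences each. None of these copies is a row of the count table, and mt-Atp6 (109886 UMIs), mt-Co3 (93880) and mt-Co1 (73319) had the highest counts of all members.

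The last 90 bases of 3 of these genes are shown as the ends of transcripts that are counted from 3' tags. Where the tags lay within the transcripts was not examined. The 3 genes are shown because mt-Co2 and mt-Atp6 passed the test in all 5 sets of the first comparison below, whereas mt-Co3 passed in none. Positions are on mm10 (GRCm38), plus strand of the mitochondrial chromosome, 5′ to 3′. Capitals mark the bases past the end of the annotated chromosome 1 copy.
mt-Co2, chrM:7607-7696, copy at chr1:24614885-24614971 on the minus strand: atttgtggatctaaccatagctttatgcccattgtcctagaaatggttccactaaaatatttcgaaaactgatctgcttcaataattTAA
mt-Atp6, chrM:8518-8607, copy at chr1:24613974-24614060 on the minus strand: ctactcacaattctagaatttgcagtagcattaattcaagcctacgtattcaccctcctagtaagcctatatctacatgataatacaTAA
mt-Co3, chrM:9301-9390, copy at chr1:24613189-24613277 on the minus strand: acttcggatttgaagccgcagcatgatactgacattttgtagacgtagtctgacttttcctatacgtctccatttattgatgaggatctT
For mt-Co2 and mt-Atp6, 87 of the 90 bases are in the copy, and for mt-Co3 89 are. mt-Atp6 (chrM:7927-8607) and mt-Co3 (chrM:8607-9390) share 1 base, and mt-Atp8 (chrM:7766-7969) overlaps mt-Atp6. How read length, aligner setting or these copies entered the counts of each library was not tested, since which library was read at which length is not given in the sources used here.

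The first comparison set the 3 libraries labelled Icam1 knockout against the 2 NOD control samples, within 5 sets of cells: nmSC, mySC, EC, myeloid cells (MC and pDC) and lymphoid cells (BC, CD4 and CD8). It asks how nerve cells of the neuritis model differ from those of control NOD mice. In all 5 sets mt-Co2, mt-Atp6 and the nuclear gene Uqcrb rose, while most other members did not pass the test. mt-Co2 kept its call in each set with any 1 sample left out, and mt-Atp6 did so in 4 of the 5. Uqcrb lost its call in every set with at least 1 such omission, as given below. UMIs were summed per sample and set, and edgeR's quasi-likelihood test with Benjamini-Hochberg adjustment over all genes of the set was used at 0.05.

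In EC, mt-Co2 stood at 196 and 315 CPM in NOD control 1 and 2 and at 1431, 1658 and 2171 under the knockout label. The groups did not overlap, and the log2 fold change was 2.56 ± 0.33 (SE; edgeR adjusted p = 0.000498). mt-Atp6 stood at 1078 and 1963, then at 5923, 7222 and 6378 (log2 1.97 ± 0.26, edgeR adjusted p = 0.000513). Uqcrb, a small nuclear subunit of complex III, stood at 294 and 140, then at 801, 947 and 868 (log2 2.34 ± 0.33, edgeR adjusted p = 0.000825). Without NOD control 2, Uqcrb in EC did not pass (log2 1.53, edgeR adjusted p = 0.0859). Of the members tested in EC, 2 of 7 mitochondrial and 1 of 42 nuclear rose and 0 fell, against 2.6% of the 538 genes tested that passed in either direction (1.12% higher and 1.49% lower).

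In nmSC, mt-Co2 stood at 303 and 397 CPM in NOD control and at 1509, 1202 and 1484 under the knockout label (log2 1.97 ± 0.22, edgeR adjusted p = 0.000589). mt-Atp6 stood at 643 and 2552, then at 6391, 6530 and 7202 (log2 2.04 ± 0.44, edgeR adjusted p = 0.0278). Both genes were higher in 3 of 3 labelled libraries than in either control sample. mt-Nd4l, a small core subunit of complex I, rose by 2.06 ± 0.51 and Uqcrb by 1.53 ± 0.30 on the log2 scale (edgeR adjusted p = 0.0439 and 0.0179). Without knockout-labelled library 1, 2 or 3, mt-Atp6 did not pass (edgeR adjusted p = 0.209, 0.147 and 0.0693), nor did Uqcrb (0.224, 0.118 and 0.082). mt-Nd4l did not pass without knockout-labelled library 1 or 2 or without NOD control 1 (edgeR adjusted p = 0.315, 0.159 and 0.138). In this set 3 of 10 mitochondrial and 1 of 68 nuclear members passed, all upward, against 3.9% of 2101 genes (2.38% higher and 1.52% lower).

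In mySC, mt-Co2 stood at 382 and 234 CPM and then at 1396, 1074 and 1636 (log2 2.23 ± 0.31, edgeR adjusted p = 3.05e-05). mt-Atp6 went from 382 and 1445 to 6437, 6579 and 6610 (log2 2.28 ± 0.38, edgeR adjusted p = 0.00021). Uqcrb (log2 1.88 ± 0.37) also rose, as did mt-Nd2, from 76.4 and 79.2 to 339, 251 and 273 CPM. Without NOD control 2 neither passed (edgeR adjusted p = 0.0874 and 0.334). Here 3 of 9 mitochondrial and 1 of 66 nuclear members passed, all upward, against 11.4% of 1711 genes (5.61% higher and 5.79% lower). NOD control 1 had only 20 cells in this set. The summed myelinating Schwann markers were 34367 and 50866 CPM in NOD control and 6376 to 10385 under the knockout label, and their part in the result was not tested.

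In myeloid cells, mt-Atp6 stood at 751 and 1217 CPM in NOD control and at 5057, 5536 and 4589 under the knockout label (log2 2.17 ± 0.23, edgeR adjusted p = 1.41e-05). mt-Co2 rose by 1.56 ± 0.28, mt-Nd2 by 1.11 ± 0.34, mt-Nd4l by 1.79 ± 0.59 and Uqcrb by 1.09 ± 0.27. Ndufc2 (log2 0.92 ± 0.28, from 112 and 122 to 234, 244 and 280 CPM), an accessory subunit of complex I, and Ndufab1 (0.97 ± 0.30, from 78.5 and 87.98 to 186, 195 and 181) rose as well, and Atp5j2, a membrane subunit of complex V, fell by 0.81 ± 0.23. Over the 5 fits that each left out 1 sample, Ndufc2 and Ndufab1 passed in 0, mt-Nd4l in 1 and mt-Nd2 and Atp5j2 in 2, with edgeR adjusted p up to 0.142, 0.153, 0.17, 0.296 and 0.15. Ndufc2, Ndufab1, mt-Nd4l and mt-Nd2 were among those lost without NOD control 1, and Uqcrb was lost without NOD control 2 (edgeR adjusted p = 0.174). Cox6a2 rose by 2.97 ± 0.57, from 11.2 and 19.6 to 156, 213 and 90.3 CPM. The pDC in which it was found were 5.33% and 3.25% of this set in NOD control and 18.2%, 22.2% and 13.3% under the knockout label, and the cells named MC held 1 Cox6a2 UMI in the 3 knockout-labelled libraries and 0 in NOD control. In MC alone, an alternative added after seeing the data in which Cox6a2 was too low to be tested, mt-Atp6, mt-Co2, Uqcrb and Ndufc2 passed as higher. In the whole myeloid set, 4 of 10 mitochondrial members rose and 0 fell, and 4 of 71 nuclear members rose and 1 fell, against 16.4% of 3514 genes (8.11% higher and 8.28% lower).

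In lymphoid cells, mt-Atp6 stood at 876 and 2032 CPM in NOD control and at 6412, 6627 and 6471 under the knockout label (log2 2.00 ± 0.32, edgeR adjusted p = 9.71e-08). mt-Co2 rose by 1.80 ± 0.33, mt-Nd4l by 1.51 ± 0.29, mt-Nd3 by 1.18 ± 0.31, mt-Nd2 by 0.97 ± 0.24 and mt-Nd5 by 0.95 ± 0.23, and Uqcrb by 1.59 ± 0.27 on the log2 scale. All but mt-Atp6, mt-Co2 and Uqcrb of these encode complex I subunits. Without NOD control 2, mt-Nd2, mt-Nd3, mt-Nd4l, mt-Nd5 and Uqcrb did not pass (edgeR adjusted p = 0.146, 0.278, 0.563, 0.597 and 0.313). DESeq2 called 2 mitochondrial members and no nuclear member, with Uqcrb at an adjusted p of 0.0521. Of 13 mitochondrial members 6 rose and 0 fell, against 10.5% of 8999 genes that rose and 19.4% that passed in either direction.

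The nuclear members of lymphoid cells went down where they passed. Of 78 tested, 1 rose (Uqcrb) and 7 fell, against 8.86% of all genes that fell, and the share that fell is thus close to that of all genes. The median over the 78 was -0.22 on the log2 scale and over all genes 0.03. Uqcr11, a small subunit of complex III, stood at 280 and 311 CPM in NOD control and at 215, 214 and 202 under the knockout label (log2 -0.71 ± 0.21, edgeR adjusted p = 0.0083). Without NOD control 2 its log2 fold change was 0.086 in the other direction. Atp5g2, 1 of the genes for the rotating ring of complex V, stood at 630 and 411 and then at 269, 289 and 295 (log2 -0.76 ± 0.24, edgeR adjusted p = 0.013). Ndufs5, Ndufb10 and Ndufb9 of complex I fell by 0.61 ± 0.19, 0.55 ± 0.20 and 0.52 ± 0.20. Atp5k (70.1 and 362, then 219, 221 and 228 CPM) and Ndufb2 (105 and 200, then 144, 149 and 144) also passed as lower, but their groups overlapped. Over the 5 fits that each left out 1 sample, Atp5g2 and Ndufb9 passed in 1 and Uqcr11, Ndufs5, Ndufb10, Ndufb2 and Atp5k in 2. None of the 7 passed without NOD control 2 or without knockout-labelled library 1 or 3.

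The lymphoid sets differed in make-up. B cells were 14.3% and 60.5% of the set in NOD control 1 and 2 and 24.2% to 26.0% under the knockout label, CD8 cells were 6.12% and 3.80% against 28.9% to 29.5%, and fibroblast markers were at 2067 and 3917 CPM against 518 to 718. The part of these differences in the result was not tested. In the cells named CD4 alone, also an alternative added after seeing the data, mt-Atp6 (log2 2.10), mt-Co2 (1.80) and Uqcrb (1.93) were among the members that passed as higher. Uqcr11 (-0.97) and Atp5k (-0.92) were among those that passed as lower. With the doubted cells of NOD control 1 left out as well, 1 control sample remained, and the log2 fold changes of these 5 kept their direction (1.54, 1.67, 2.16, -1.02 and -1.11).

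**Figure D5:**
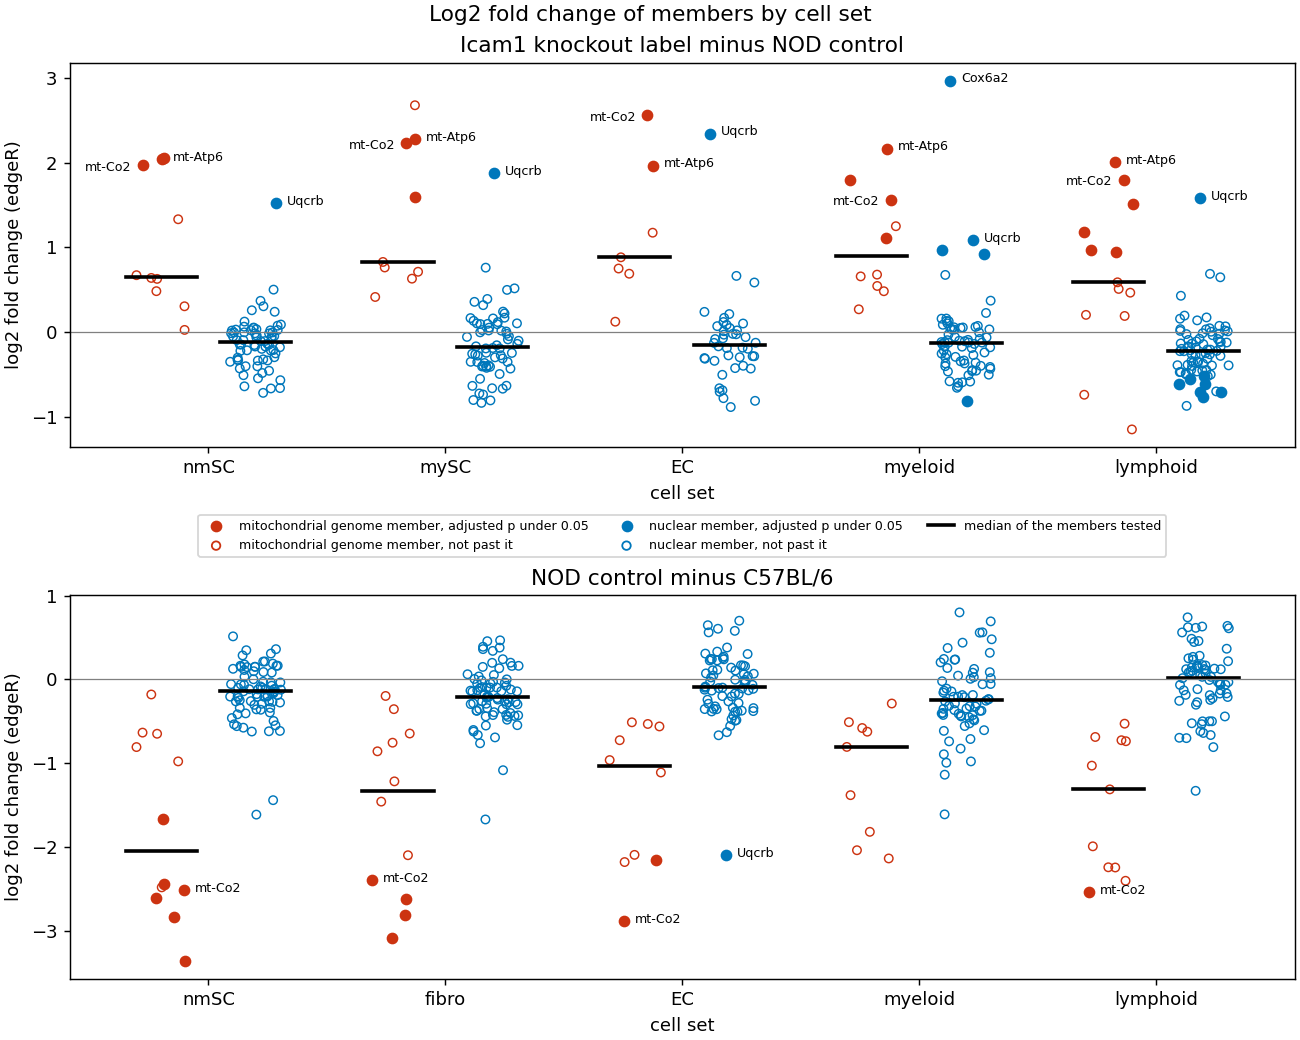
Log2 fold change from edgeR (y axis) of each tested member in each set of cells (x axis), for the libraries labelled Icam1 knockout minus NOD control (top) and NOD control minus C57BL/6 (bottom), with mitochondrial members in red, nuclear members in blue, members with an adjusted p under 0.05 filled and a black bar at the median of the members tested. mt-Co2, mt-Atp6 and Uqcrb are filled and above 0 in all 5 sets of the top panel.

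Uqcrb was the only nuclear member that rose in all 5 sets. Its library levels over all named cells were 324, 696 and 632 CPM in C57BL/6, 297, 137 and 115 in NOD control, and 400, 323 and 381 in the knockout-labelled libraries. It lies at chr13:66900617-66905378 on the minus strand. Of the 57-base stretches in its last 400 bases, 37.2% also occurred in the genes Gm16089, Gm19326, Gm2962 or Gm5457, and at 150 bases none did. The other small subunits of complex III had no member that rose in any set.

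mt-Co1 and mt-Co3, next to mt-Atp6 the most abundant members, did not pass in any set of this comparison. In nmSC mt-Co3 stood at 1637 and 7072 CPM in NOD control and at 5206, 5113 and 6150 under the knockout label, and mt-Co1 at 1536 and 4627 and then at 3089, 3232 and 3277. The labelled libraries lay between the 2 control samples for both. In mySC the labelled libraries lay above both controls for each (log2 0.76 ± 0.31 for mt-Co3 and 0.71 ± 0.31 for mt-Co1, edgeR adjusted p = 0.13 and 0.165). The median log2 fold change of the mitochondrial members tested was 0.88 in EC, 0.66 in nmSC, 0.83 in mySC, 0.90 in myeloid and 0.59 in lymphoid cells. That of the nuclear members was -0.15, -0.12, -0.18, -0.12 and -0.22, beside medians over all genes of -0.03 to 0.04.

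Leaving out NOD control 1, with its low mitochondrial share, moved the mitochondrial medians most in nmSC and lymphoid cells and least in mySC. Without it, the 3 labelled libraries were compared with NOD control 2 alone, assuming that this sample varies as the others do. The mitochondrial median was then 0.58 in EC, 0.02 in nmSC, 0.80 in mySC, 0.47 in myeloid and -0.07 in lymphoid cells. The number of mitochondrial members tested went from 7 to 8 in EC, 9 to 10 in mySC and 10 to 11 in myeloid cells. mt-Co2 (log2 1.69 to 2.37), mt-Atp6 (1.32 to 1.87) and Uqcrb (1.32 to 2.52) still passed as higher in all 5 sets. mt-Co1 and mt-Co3 passed as lower in nmSC (-0.61 and -0.44) and in lymphoid cells (-0.32 and -0.21), where mt-Nd4 did too (-0.32). In lymphoid cells 32 of 79 nuclear members passed as lower there and 1 as higher, against 12.5% and 13.1% of 9871 genes. Without NOD control 2 in its place, 1 of 79 nuclear members passed, against 2.77% of 9465 genes in either direction.

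The ratio of mitochondrial to nuclear UMIs was higher under the knockout label in every set, with no overlap of the samples. In nmSC the log2 ratio was -1.90 and -0.10 in NOD control and 0.14, 0.10 and 0.34 under the label. In EC it was -1.88 and -0.67, then -0.18, 0.01 and 0.11. In mySC it was -2.06 and -0.96, then -0.13, -0.11 and 0.14. In myeloid cells it was -1.78 and -0.87, then -0.22, -0.22 and -0.08, and in lymphoid cells -1.56 and -0.23, then 0.21, 0.25 and 0.30. The differences of the group means were 1.19, 1.26, 1.48, 1.15 and 1.15 in these sets, and without NOD control 1 they were between 0.29 in nmSC and 0.93 in mySC.

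The second comparison set NOD control (2 samples) against C57BL/6 (3 samples), in nmSC, fibroblasts (fibro), endothelial, myeloid and lymphoid cells. The C57BL/6 annotation divides these differently: EC1 stood for EC there, MP joined MC in the myeloid set and had no counterpart in NOD, and 1 name, TC, covered the T cells. Strain and every other difference between these animals cannot be told apart. The mitochondrial members that passed were all lower in NOD control, and 1 nuclear call was made over the 5 sets. mt-Co2 passed in 4 of 5 sets and mt-Nd2 in 3.

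In nmSC, mt-Nd4l stood at 159, 188 and 170 CPM in C57BL/6 and at 22.6 and 30.9 in NOD control (log2 -2.84 ± 0.34, edgeR adjusted p = 3.78e-05). mt-Nd2 stood at 242, 558 and 510, then at 55.2 and 105 (log2 -2.60 ± 0.40, edgeR adjusted p = 0.000575). mt-Co2 stood at 853, 2468 and 2140, then at 303 and 397 (log2 -2.52 ± 0.46, edgeR adjusted p = 0.00322). mt-Atp8, the short complex V gene, fell by 3.37 ± 0.60 from a mean of 47.0 to 4.63 CPM. mt-Nd3 and mt-Nd5 passed as lower too, with overlapping groups, and did not pass without NOD control 1 (edgeR adjusted p = 0.143 and 0.407) or without C57BL/6 library 3 or 4. In all 6 of 12 mitochondrial members fell, against 2.28% of 7691 genes that passed in either direction (1.38% higher and 0.897% lower).

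In fibroblasts, mt-Nd2 stood at 298, 531 and 532 CPM and then at 41.7 and 98.4 (log2 -2.81 ± 0.41, edgeR adjusted p = 0.001). mt-Nd4l fell by 2.62 ± 0.42, mt-Nd3 by 3.09 ± 0.55 and mt-Co2 by 2.40 ± 0.46 on the log2 scale. Here 4 of 12 mitochondrial members fell, against 1.82% of 4780 genes (0.941% higher and 0.879% lower). mt-Co2 did not pass there without NOD control 2 (edgeR adjusted p = 0.0784). In EC, mt-Co2 fell by 2.88 ± 0.55 from 862, 2551 and 2638 to 196 and 315 CPM, mt-Nd2 by 2.16 ± 0.47 and Uqcrb by 2.10 ± 0.45, so that 2 of 10 mitochondrial and 1 of 71 nuclear members fell, against 1.96% of 2091 genes (0.909% higher and 1.05% lower). None of these 3 passed without NOD control 1 (edgeR adjusted p = 0.17, 0.174 and 0.0864), without NOD control 2 or without C57BL/6 library 4. In lymphoid cells mt-Co2 was the only member that passed (log2 -2.54 ± 0.58, edgeR adjusted p = 0.0493), 1 of 11 mitochondrial members against 1.79% of 2343 genes (0.768% higher and 1.02% lower). It passed in 1 of 5 fits that each left out 1 sample, and not without NOD control 1 (edgeR adjusted p = 0.386). In myeloid cells no mitochondrial member of 9 passed by edgeR, against 1.3% of 1687 genes (0.652% in each direction). There 3 had an unadjusted p below the threshold and DESeq2 called 1.

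Among nuclear members, edgeR called 0 of 78 in nmSC, 0 of 75 in fibroblasts, 0 of 69 in lymphoid and 0 of 68 in myeloid cells. At an unadjusted p below 0.05 there were 2, 3, 0 and 3, and DESeq2 called 0, 1, 0 and 0. The medians of the nuclear members were -0.13, -0.21, 0.02 and -0.25 on the log2 scale, and those of the mitochondrial members -2.05, -1.34, -1.31 and -0.81.

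The size of the strain ratio depended on which libraries were included. The log2 ratio of mitochondrial to nuclear UMIs was 0.99 lower in NOD control in nmSC, 0.87 in fibroblasts, 0.89 in EC, 0.58 in myeloid and 1.15 in lymphoid cells, and the groups overlapped in each set. In fibroblasts the values were -1.83, 0.11 and 0.08 in C57BL/6 and -2.30 and -0.52 in NOD control, and without NOD control 1 the difference was 0.03 in the other direction. With both libraries numbered 1 left out, NOD control 2 was the only NOD control sample. Its log2 ratio was then below those of C57BL/6 libraries 3 and 4 in each set. It was -0.52 beside 0.11 and 0.08 in fibroblasts, -0.10 beside 0.72 and 0.67 in nmSC and -0.67 beside 0.15 and 0.35 in EC. In myeloid cells it was -0.87 beside -0.22 and -0.40, and in lymphoid cells -0.23 beside 0.64 and 0.63.

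The neighbouring pathways of the mitochondrion were read from lists of their own, summed here over the 5 sets of the knockout-label comparison. Complex II, which is wholly nuclear, had no call in 17 gene and set tests. The tricarboxylic acid cycle had 2 higher and 5 lower of 35, glycolysis 0 and 4 of 53, and the mitochondrial ribosome 2 and 9 of 189. Most of these calls were in lymphoid cells, where 10.5% of all genes rose and 8.86% fell. There the cycle had 2 higher and 3 lower of 17, glycolysis 0 and 3 of 16, and the ribosome 2 and 8 of 77. In lymphoid cells Idh3g (log2 -0.96 ± 0.22) and Suclg1 (-0.81 ± 0.22) of the cycle, the glycolytic enzyme Tpi1 (-0.80 ± 0.22) and the ribosomal Mrpl30 (-1.01 ± 0.19) and Mrpl57 (-0.94 ± 0.23) fell, and Suclg2 (1.68 ± 0.53) and Idh3a (0.87 ± 0.28) of the cycle and the ribosomal Mrpl32 (0.74 ± 0.23) and Mrpl19 (1.00 ± 0.36) rose. Ldhb, a lactate dehydrogenase subunit, fell in mySC (log2 -1.37 ± 0.28) and also passed as lower in lymphoid cells.

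Genes that read or copy the mitochondrial genome had 2 calls, both in lymphoid cells. Of 23 tests on its transcription and RNA processing 2 were higher, and of 8 on its replication none passed by edgeR. In lymphoid cells the 2 were of 17 tested, close to the 10.5% of all genes that rose there. Mterf3, a factor that binds mitochondrial DNA (log2 1.78 ± 0.44), and Pnpt1, which degrades and imports RNA (1.55 ± 0.57), rose in lymphoid cells. Gabpb1, a subunit of the ETS-family regulator of nuclear oxidative phosphorylation genes, rose there by 2.03 ± 0.31 (edgeR adjusted p = 1.93e-08). It was the 1 call among 7 biogenesis factors tested in lymphoid cells. The ADP/ATP carrier Slc25a5 (0.96 ± 0.22) and the outer membrane channel Vdac3 (1.03 ± 0.25) rose in nmSC, and Vdac1 fell in lymphoid cells (-0.80 ± 0.27). These were 2 of 6 carriers and channels tested in nmSC, where 2.38% of all genes rose, and 1 of 6 in lymphoid cells. There 1 of 9 stress response genes rose (Ddit3) and 2 fell (Atf5 and Hspe1). Of 7 mitophagy genes 2 rose (Sqstm1 and Bnip3l) and 1 fell (Bnip3), where 10.5% of all genes rose and 8.86% fell. In the comparison of NOD control with C57BL/6 the only call on these lists was Suclg2 in nmSC (-2.57 ± 0.56), which did not pass without NOD control 1 (edgeR adjusted p = 0.11). Of the 41 calls on all these lists under the knockout label, 38 passed in the same direction without NOD control 1 and 3 without NOD control 2, where 14 turned in direction.

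Promoters of 71 of the 86 nuclear symbols were matched to RefSeq starts on GRCm38.p6, as windows of 300 bases (250 before to 50 after the start), searched on both strands. GCATGCG, the core of the NRF1 motif, was in 11 of them (15.5%) and in 3.64% of 27025 promoters. The ETS motif CCGGAAG was in 15 (21.1%) against 9.12%. ACGTG, the core of a hypoxia element, was in 16 (22.5%) against 19.7%, TATAAA in 7 (9.86%) against 14.2%, and CCAAT in 31 (43.7%) against 37.9%. The motifs differ in letters, so that none of the others holds or lies within another. A match describes letters and is no evidence of binding.

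The 250 bases before the start are shown for Atp5g2 and Uqcr11, the members that fell in lymphoid cells with no overlap of the groups and that had a match there. Each is on the minus strand, written 5′ to 3′ in the direction of the gene, from RefSeq on GRCm38.p6, with the NRF1 core of Atp5g2 (matches on both strands that overlap) and the ETS motif of Uqcr11 in capitals.
Atp5g2, chr15:102671048-102671297: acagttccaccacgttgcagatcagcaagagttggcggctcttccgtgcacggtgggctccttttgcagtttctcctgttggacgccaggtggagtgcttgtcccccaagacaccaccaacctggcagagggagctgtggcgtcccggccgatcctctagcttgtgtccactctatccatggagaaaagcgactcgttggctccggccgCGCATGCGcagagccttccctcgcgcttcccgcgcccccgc
Uqcr11, chr10:80406822-80407071: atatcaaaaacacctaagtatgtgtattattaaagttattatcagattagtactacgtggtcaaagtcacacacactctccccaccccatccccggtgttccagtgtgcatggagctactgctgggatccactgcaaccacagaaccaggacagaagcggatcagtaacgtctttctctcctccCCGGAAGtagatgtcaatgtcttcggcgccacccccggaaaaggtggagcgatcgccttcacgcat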

How the data were processed

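The deposited mouse matrix holds UMI counts per gene and cell barcode, made by the authors with Cell Ranger 3.0.2 on mm10, per the submitters' processing notes. The deposited metadata give each barcode its library and cell type name. Named barcodes (15672 of 16050) were used, and no named cell had over 7.99% of UMIs from the mitochondrial members. No doublets were called here, and free RNA was not corrected. UMIs were added up over the cells of each set within a sample, for sets with at least 20 cells in every sample. edgeR 4.0.16 (quasi-likelihood, TMM, filterByExpr with a minimum count of 10; Benjamini-Hochberg over all genes of a set, threshold 0.05; R 4.3.3, limma 3.58.1) compared the groups, and DESeq2 1.42.0 was an alternative. The fit was tested on simulated data. Shares were given as percentages, with exact 95% binomial intervals (at most 0.781 percentage points wide per type and library, counting error only). The members and lists were chosen with earlier results of these data known. A further pan-Schwann marker is not reported here and was left out of the summed levels. Named genes were all mitochondrial members, nuclear members past the threshold, the 6 widest ranges over cell types, isoform pairs, and up to 4 genes of each other list. Sequences and positions came from RefSeq and GENCODE tables. Python 3.11.15, numpy 2.4.6, pandas 2.3.3 and matplotlib 3.10.9 made the tables and figures.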

Additional observations from a re-analysis of the deposited data

Results flagged for a closer look

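Barcodes without a cell type name enter none of the comparisons, and most of them lay above the mitochondrial share of any named cell. The 378 unnamed barcodes had a median of 9.61% of UMIs from the 13 mitochondrial members, against 2.13% in named cells, and 318 of them were above 8%, a level that no named cell reached. The highest value was 41.3%. The highest named cell stood at 7.99% in C57BL/6 library 3, 7.96% in C57BL/6 library 4 and 7.95% in knockout-labelled library 1. It stood at 6.22% in C57BL/6 library 1 and 5.53% in NOD control 1. A limit near 8% set before naming would by itself give this difference, and its part was not tested. All mitochondrial shares of named cells above come from cells below that level. NOD control 1 had 0 unnamed barcodes.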

How the results depend on the processing

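Leaving out 1 sample at a time moved the difference in log2 ratio, knockout label minus NOD control, between 0.65 and 1.86 in EC, 0.49 and 1.82 in lymphoid cells, 0.93 and 2.03 in mySC, 0.70 and 1.60 in myeloid cells and 0.29 and 2.10 in nmSC. NOD control minus C57BL/6 moved between -1.53 and -0.29 in EC, -1.76 and 0.027 in fibroblasts (the sign turned without NOD control 1), -1.81 and -0.48 in lymphoid cells, -1.03 and -0.13 in myeloid cells and -1.89 and -0.08 in nmSC. The share of all genes called also changed with the NOD control sample left out, as given above for lymphoid cells. The counts that follow are therefore not read as results about the members. Mitochondrial members called under the knockout label then ranged from 2 to 6 in EC, 6 to 9 in lymphoid cells, 3 to 7 in mySC, 3 to 6 in myeloid cells and 1 to 9 in nmSC, and nuclear members from 0 to 2, 1 to 33, 0 to 6, 1 to 4 and 0 to 6. Against C57BL/6 the mitochondrial counts ranged from 0 to 3 in EC, 3 to 6 in fibroblasts, 0 to 3 in lymphoid, 0 to 3 in myeloid cells and 4 to 8 in nmSC, and the nuclear counts from 0 to 1 in all but lymphoid cells, where they stayed at 0. In lymphoid cells the log2 changes of Ndufb2, Uqcr11 and Atp5k were -0.67, -0.77 and -0.91 without NOD control 1 and turned to 0.97, 0.086 and 2.16, none past the threshold, without NOD control 2.

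With the replicate number as a block, which the labels do not tie to shared animals (correlations of same-numbered deviations -0.04 to 0.12), 0 mitochondrial and 0 nuclear members were called in lymphoid cells, 2 and 1 in myeloid cells, and 2 and 1 in each of EC, mySC and nmSC.

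For the knockout label, DESeq2 called 2 mitochondrial and 0 nuclear members in lymphoid cells and 2 and 1 in myeloid cells. Keeping libraries 2-1 and 2-2 apart gave 13 nuclear calls in lymphoid cells and 4 in mySC. Without a filter on low counts there were 5 nuclear calls in lymphoid cells, 7 mitochondrial calls in myeloid cells and 2 nuclear calls in nmSC. MC alone, chosen after seeing the data, gave 2 and 2. CD4 cells alone without NOD control 1, also chosen after seeing the data, gave 32 nuclear calls in lymphoid cells. Library sizes without the mitochondrial members gave 5 mitochondrial calls in mySC. For NOD control against C57BL/6, DESeq2 called 0 nuclear members in EC, 1 in fibroblasts, and 3 mitochondrial in lymphoid and 1 in myeloid cells. Libraries 2-1 and 2-2 apart gave 1 nuclear call in fibroblasts, 2 in nmSC, and 3 mitochondrial calls in lymphoid and 2 in myeloid cells. No filter gave 1 nuclear call in fibroblasts, 2 in nmSC, and 0 mitochondrial calls in lymphoid and 3 in myeloid cells. Leaving out both libraries numbered 1, chosen after seeing the data, left 1 NOD control sample against 2 of C57BL/6. The number of calls changed in EC, fibroblasts, lymphoid cells, myeloid cells and nmSC, and it is not given since the spread then came from C57BL/6 alone. The causes were not tested. The share of all genes called in each of these fits, and in those with a replicate block, is not given here. Their counts are therefore not read as results about the members. Over single called members, 416 results stayed on their side of the threshold, 143 lost the call and 3 turned. The depth of 20 to 50 cells in some sets limits calls on the rarer members.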
